A study of Arabidopsis thaliana with 4 samples.

Results

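The genes described are 10 floral organ and ovule identity genes of Arabidopsis thaliana other than the markers AP1, AP3, PI, AG and SEP3. They were named by locus, with earlier results of these data known: SEP1 (AT5G15800), SEP2 (AT3G02310), SEP4 (AT2G03710), CAL (AT1G26310), SHP1 (AT3G58780), SHP2 (AT2G42830), STK (AT4G09960), AP2 (AT4G36920), AGL6 (AT2G45650) and AGL13 (AT3G61120). The count table lists 24750 genes, of which 9 are members of this set, and 8 of the 18647 genes with enough counts for a test are members. The level of SHP2 was not analysed here, so only its sequence is described, and AGL13 was listed at 0 in every library and not tested.

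The study compared floral buds with seedlings, both of the wild-type strain col-0, by Oxford Nanopore direct RNA sequencing (ONT DRS), in which native polyadenylated RNA passes through a pore without being copied by PCR. The 2 floral bud libraries came from plants that had been moved to soil after 14 days on plates and grown for 3 further weeks, until they had reached the growth stage at which flowers begin to open. The 2 seedling libraries came from seedlings aged 14 days, grown on MS plates with sucrose. Both stages had a photoperiod of 16 h light and 8 h dark, and each library is a biological replicate. Organ, age and growth medium differ together between the stages and cannot be told apart.

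Floral organs are specified by combinations of transcription factors, most of them MIKC-type MADS-box proteins that bind DNA as dimers and higher complexes. The SEPALLATA (SEP) proteins are the shared partners in these complexes, SHATTERPROOF (SHP) and SEEDSTICK (STK) proteins act with AGAMOUS (AG) in carpels and ovules, and CAULIFLOWER (CAL) acts with its close relative APETALA1 (AP1) in floral meristems. APETALA2 (AP2) has no MADS domain, belongs to the AP2/ERF family, specifies the outer organs and is repressed by the microRNA miR172.

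The MADS box, the coding sequence of the DNA-binding domain, is what 9 of the 10 genes share, and its start shows how near the members are to each other. The stretch shown is the 60 coding bases from the codon before the conserved glycine-arginine-glycine run. It begins at the start codon of the longest annotated protein, except in SHP1 and SHP2 (15 codons before it) and STK (95). The bases, read from the RefSeq annotation of TAIR10.1 on each gene's own strand, are printed in lower case with capitals where a base differs from SEP2.
SEP1: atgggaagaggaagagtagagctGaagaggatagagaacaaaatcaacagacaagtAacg
SEP2: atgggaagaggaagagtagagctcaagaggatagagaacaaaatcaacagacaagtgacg
SEP4: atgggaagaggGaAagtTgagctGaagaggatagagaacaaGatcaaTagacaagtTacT
CAL: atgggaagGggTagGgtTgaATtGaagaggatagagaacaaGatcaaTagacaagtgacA
AP1: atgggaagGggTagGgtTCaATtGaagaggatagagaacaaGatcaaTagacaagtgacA
SHP1: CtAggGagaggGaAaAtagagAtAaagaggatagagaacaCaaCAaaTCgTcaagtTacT
SHP2: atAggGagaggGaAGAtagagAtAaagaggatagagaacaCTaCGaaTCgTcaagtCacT
STK: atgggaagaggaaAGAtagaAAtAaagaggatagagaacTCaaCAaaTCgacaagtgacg
AGL6: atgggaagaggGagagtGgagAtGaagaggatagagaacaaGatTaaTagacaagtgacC
AGL13: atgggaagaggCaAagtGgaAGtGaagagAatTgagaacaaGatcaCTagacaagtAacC

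SEP1 differed from SEP2 at 2 of the 60 positions, SEP4 and AGL6 at 8 each, CAL at 10, STK at 12, AGL13 at 13, SHP1 at 16 and SHP2 at 17. AP1, a marker printed for its likeness to CAL, differed from SEP2 at 11. Identity was taken over the longest annotated protein of each gene, with gaps counted in the alignment. SEP1 and SEP2 were 82.9% identical, CAL and AP1 76.7%, SHP1 and SHP2 74.9%, and AGL6 and AGL13 65.1%, while SEP4 was 52.7% identical to SEP1. The SHP1 and SHP2 proteins differ in length, at 281 and 248 amino acids, which lowers their value. The longest stretch of identical spliced transcript was 56 nt between CAL and AP1, 34 nt between SHP1 and SHP2, 32 nt between SEP1 and SEP2 and 19 nt between AGL6 and AGL13. A read confined to such a stretch could belong to either gene of a pair.

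AP2 carries a site complementary to miR172, and its relatives TOE1, TOE2 and TOE3 carry the same kind of site, which is shown because these genes differ in their levels below. In the RefSeq annotation the mature miR172 sequences are, with the seed (bases 2 to 8) in capitals:
MIR172a: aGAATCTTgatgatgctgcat
MIR172c: aGAATCTTgatgatgctgcag
MIR172e: gGAATCTTgatgatgctgcat
The best complements of MIR172a in the transcripts are, with capitals for bases that do not form a Watson-Crick pair:
AP2: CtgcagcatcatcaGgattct
TOE1: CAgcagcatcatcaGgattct
TOE2: atgcagcatcatcaGgattct
TOE3: TGgcagcatcatcaGgattct
The AP2 site lies in coding sequence of exon 11 of 11 (chr4:17403019-17403039, plus strand). It has 2 mismatches to MIR172a, of which 1 is a G:U pair. The other is its first base, C, which does pair with the last base of MIR172c. Over the sites of these 4 genes and of SMZ and SNZ, the other AP2 relatives, 17 of 21 positions were identical in all 6.

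The libraries held 796873 and 669352 counts in floral buds and 579350 and 620123 counts in seedlings. Where a gene was counted, a 0 allows up to 3 counts, which is 3.74 and 4.24 normalized CPM (counts scaled to the size of the library) in floral buds and 5.30 and 5.08 CPM in seedlings. The labels were checked against marker genes: the summed counts of AP1, AP3, PI, AG and SEP3 were 943 and 767 in floral buds, against 6 and 3 in seedlings, while the root gene PYK10 was at 5 and 0 counts in floral buds, against 779 and 766 in seedlings. The summed counts of the leaf photosynthesis markers CAB1, LHCB3 and RBCS1A were 2957 and 2458 in floral buds, against 11114 and 11907 in seedlings, with RBCS1A listed at 0 throughout. RBCS1A is abundant in green tissue, so a gene listed at 0 in every library of this table need not be one without transcripts. In such bulk samples, fewer cells of a type and less RNA per cell cannot be told apart.

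Most of the tested identity genes were higher in floral buds. Of the 8 tested, 6 were called higher in floral buds (SEP1, SEP2, CAL, SHP1, STK and AGL6), none was called higher in seedlings, and SEP4 and AP2 did not pass the test. A call means a Benjamini-Hochberg FDR under 0.05 and a fold change over 2 in edgeR's quasi-likelihood test. Over all 18647 genes tested, 10.3% were called higher in floral buds and 9.52% higher in seedlings. At 0 in both seedling libraries were 5 of the 6 called genes, so they passed the filter of 5 summed counts through floral buds alone. With each gene at 0 in seedlings set to its lower bound and SHP1 to its count ratio, the median log2 fold change of the 8 was 2.66. For genes at 0 in seedlings the direction followed from the filter, so this median is a description only. The median over all tested genes, 0.06, is of fitted values and is not a like measure. Summed over the 9 listed members, floral buds held 320 and 319 counts and seedlings 29 and 17.

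**Figure D1:**
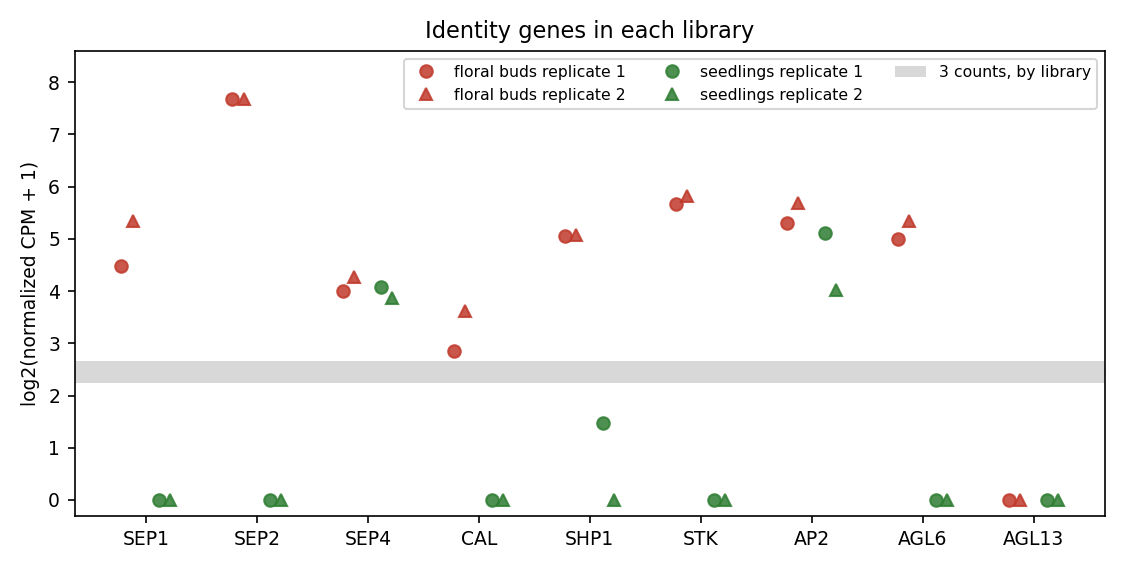
Normalized CPM, as log2(CPM + 1), of the 9 listed identity genes in each library, with floral buds in red on the left and seedlings in green on the right of each gene. The grey band spans 3 counts in the libraries (3.74 to 5.30 CPM). SEP2 stands highest at 204 and 203 CPM in floral buds and at 0 in seedlings, SEP4 is at a like level in all libraries, and AGL13 is listed at 0 throughout.

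Among the SEP genes, which encode the shared partners of the floral MADS-box complexes, SEP2 and SEP1 were higher in floral buds and SEP4 was not called. SEP2 (chr3:464279-467151, minus strand, 7 exons) had 164 and 144 counts in floral buds, against 0 and 0 in seedlings, which is 204 and 203 CPM against 0. Its floral bud libraries were level with each other, at a mean of 204 ± 0.70 CPM (SD, n = 2). The gene was at least 39.3-fold higher in floral buds, the bound being set by 3 counts in each seedling library (edgeR FDR = 1.59e-46). The size of the FDR depended on the method: it was 1.6e-08 with DESeq2 and 0.006 with limma-voom.

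SEP1 (chr5:5151334-5154253, minus strand, 7 exons), the gene nearest to SEP2 in sequence, had 17 and 28 counts in floral buds, against 0 and 0 in seedlings. The 2 floral bud libraries stood apart at 21.2 and 39.5 CPM, a 1.87-fold difference between replicates, yet both lay above the seedling libraries. SEP1 was at least 5.85-fold higher in floral buds (edgeR FDR = 1.61e-08). On the opposite strand its locus overlaps the protein-coding AT5G15790 by 100 bp and the long non-coding RNA (lncRNA) gene AT5G02455 by 449 bp. Reads were joined to genes without strand, so the counts of such partners are uncertain. AT5G15790 had 4 and 1 counts in floral buds, against 3 and 1 in seedlings, and AT5G02455 was listed at 0 in every library.

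SEP4 (chr2:1129229-1131838, plus strand, 7 or 8 exons by transcript) had 12 and 13 counts in floral buds, against 9 and 8 in seedlings. In normalized terms this is 15 and 18.4 CPM in floral buds and 15.9 and 13.6 CPM in seedlings, so the 2 stages overlapped. The log2 fold change was 0.17 ± 0.56 (SE), with a 95% interval of -0.93 to 1.28 that includes a 2-fold increase, and the FDR was 0.88 in edgeR's test. A difference within this interval was not detectable at this depth. No other gene overlaps the SEP4 locus, and the nearest, MRH6, lies 281 bp away with 0 and 0 counts in floral buds, against 1 and 1 in seedlings.

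**Figure D2:**
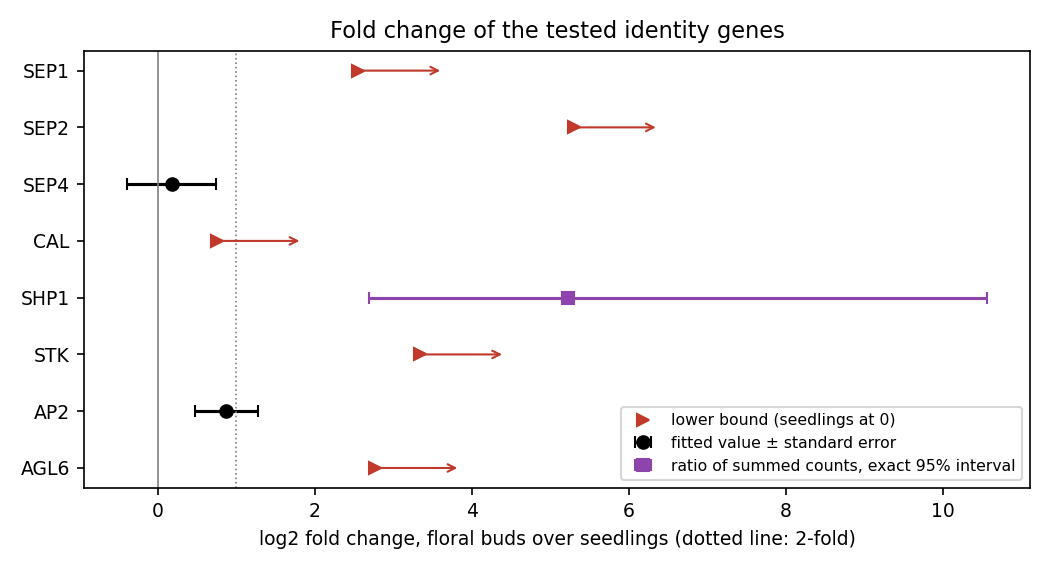
Log2 fold change of floral buds over seedlings for the 8 tested genes. Red triangles with arrows are lower bounds for genes at 0 in both seedling libraries, the purple square is the ratio of summed counts of SHP1 with its exact 95% interval, and black circles are fitted values ± SE for SEP4 (0.17) and AP2 (0.87), both left of the dotted line at a 2-fold change.

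The division of counts among the SEP genes, SEP3 included, differed between the stages. In floral buds, SEP2 held 41.5% and 40.7% of the 395 and 354 SEP counts and SEP3 held 51.1% and 47.7%, while SEP1 had 4.30% and 7.91%. SEP4 made up 3.04% (exact Clopper-Pearson 95% interval 1.58 to 5.25%) and 3.67% (1.97 to 6.20%) of the SEP counts in floral buds, against 69.2% (38.6 to 90.9%) and 72.7% (39.0 to 94.0%) in seedlings. The seedling shares rest on 9 of 13 and 8 of 11 counts, with the rest from SEP3. The intervals of the floral bud libraries lay below those of the seedling libraries, and they cover counting error only. SEP4 itself was at 15 and 18.4 CPM in floral buds, against 15.9 and 13.6 CPM in seedlings. The difference in its share therefore restates the lower counts of the other SEP genes in seedlings.

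**Figure D3:**
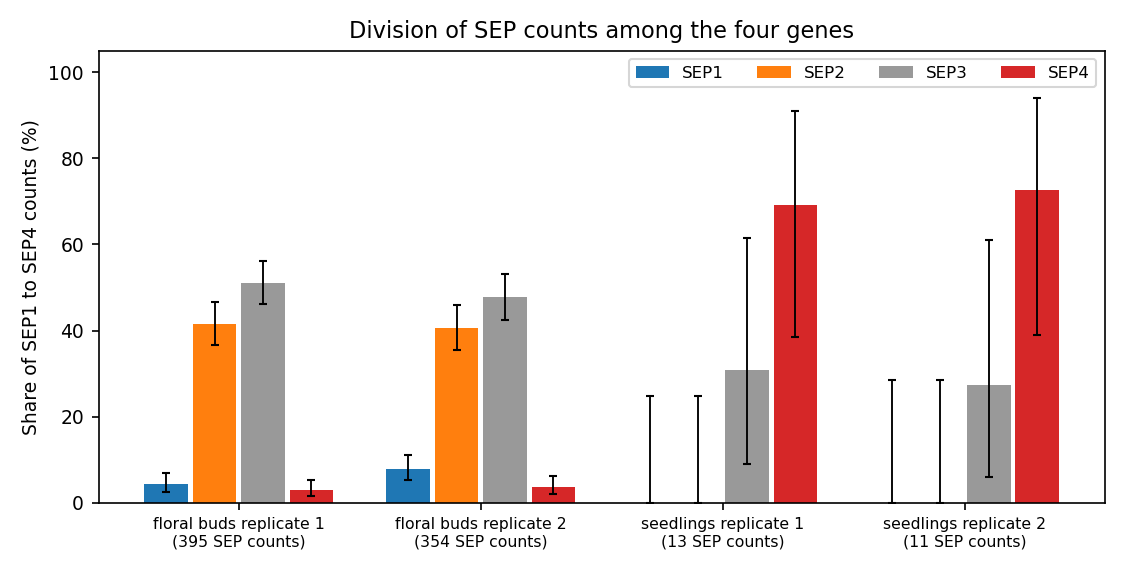
Share of the summed SEP1, SEP2, SEP3 and SEP4 counts held by each gene in each library, in percent, with exact 95% intervals for counting error. SEP2 and SEP3 make up most counts in floral buds, where SEP4 has 3.04% and 3.67%, and SEP4 has 69.2% and 72.7% in seedlings.

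Within the closest pair, SEP1 made up 9.39% (5.57 to 14.6%) of the SEP1 and SEP2 counts in floral buds replicate 1 and 16.3% (11.1 to 22.7%) in replicate 2. SEP2 thus gave most counts of the pair in both libraries, and the intervals of the replicates overlapped. SEP4 made up 41.4% (23.5 to 61.1%) and 31.7% (18.1 to 48.1%) of the SEP4 and SEP1 counts in floral buds. In seedlings this pair had 9 and 8 counts, every one of them from SEP4.

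CAL, which acts in floral meristem identity together with AP1, was present in floral buds at a low level. CAL (chr1:9099994-9103644, minus strand, 8 exons) had 5 and 8 counts in floral buds, against 0 and 0 in seedlings. Both floral bud libraries, at 6.23 and 11.3 CPM, lay above the level of 3 counts. CAL was at least 1.69-fold higher in floral buds (edgeR FDR = 0.0109). This bound lies under the 2-fold limit of a call, so the call rests on the fitted log2 fold change of 5.56. The call was lost with DESeq2 (FDR = 0.152), without seedlings replicate 1 (edgeR FDR = 0.0796) and without seedlings replicate 2 (edgeR FDR = 0.0848).

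AP1, its closest relative here, had 138 and 104 counts in floral buds, against 0 and 0 in seedlings. AP1 therefore held 96.5% (92.0 to 98.9%) and 92.9% (86.4 to 96.9%) of the counts of the pair in floral buds. The pair shares the longest identical stretch of those compared, 56 nt. Whether any read of one gene was counted for the other was not tested.

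The carpel and ovule genes SHP1 and STK were both higher in floral buds. SHP1, which helps to form the valve margin of the fruit and, with SHP2 and STK, to specify ovules, lies at chr3:21738160-21742517 (plus strand, 7 to 10 exons by transcript). It had 26 and 23 counts in floral buds, against 1 and 0 in seedlings, or 32.4 and 32.5 CPM against 1.77 and 0 CPM. The replicates of floral buds were level and both seedling libraries were under 3 counts. The ratio of summed counts was 37.5, with an exact 95% interval of 6.43 to 1510, and the FDR was 1.23e-07 in edgeR's test. The SHP1 locus overlaps the lncRNA gene AT3G09155 by 564 bp and GAUT15 by 447 bp, both on the opposite strand and not analysed here. The single seedling count of SHP1 was in replicate 1, and the size of the fold change rests on it: the fitted log2 fold change of 4.95 became 7.51 without seedlings replicate 1 and 4.06 without seedlings replicate 2, where SHP1 was called both times (edgeR FDR = 1.27e-05 and 0.000317). A ratio to 1 count and a bound set by 3 counts are on different footings, so SHP1 is not ranked against SEP2 or STK by fold change.

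STK (chr4:6236375-6241281, minus strand, 7 to 9 exons by transcript), which specifies ovules and the stalk of the seed, had 40 and 39 counts in floral buds, against 0 and 0 in seedlings. Its 49.8 and 55.1 CPM gave a mean of 52.5 ± 3.70 CPM (SD, n = 2) in floral buds, and the stages did not overlap. STK was at least 10.1-fold higher in floral buds (edgeR FDR = 5.53e-14). At its 3′ end the locus overlaps AT4G09950 on the opposite strand by 186 bp. AT4G09950 had 4 and 4 counts in floral buds, against 7 and 3 in seedlings and was not called.

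SHP2, the near copy of SHP1, lies at chr2:17820114-17824013 on the plus strand, and its level was not analysed here. The lncRNA gene AT2G42835 on the opposite strand covers 1756 bp of the SHP2 locus and touches 6 of its exons. AT2G42835 had 12 and 7 counts in floral buds, against 0 and 0 in seedlings, so it passed the count filter through floral buds alone. It was called higher in floral buds (fitted log2 fold change 6.08, edgeR FDR = 0.000878), and its bound is at least 2.39-fold. Without strand, reads of SHP2 and of AT2G42835 cannot be told apart, and whether any of these counts came from SHP2 was not tested.

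AGL6 and AGL13 form a sister group to the SEP genes. AGL6, which takes part in flower development, was higher in floral buds, and AGL13 was listed at 0. AGL6 (chr2:18804190-18806586, plus strand, 8 exons) had 25 and 28 counts in floral buds, against 0 and 0 in seedlings. Its level was 31.1 and 39.5 CPM in floral buds, without overlap between the stages. AGL6 was at least 6.81-fold higher in floral buds (edgeR FDR = 8.25e-10).

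AGL13 (chr3:22618259-22620529, minus strand, 8 exons) was listed at 0 in all 4 libraries. The leaf gene RBCS1A was listed in the same way, so the 0 of AGL13 is not given as a limit on its level, and no share of the AGL6 and AGL13 pair is given. The nearest gene to AGL6 is SOC1 (AGL20), 918 bp away on the opposite strand, with 28 and 35 counts in floral buds, against 17 and 16 in seedlings, and it was not called.

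AP2, the member outside the MADS-box family, was found in both stages. AP2 (chr4:17400610-17403469, plus strand, 10 or 11 exons by transcript) had 31 and 36 counts in floral buds, against 19 and 9 in seedlings. In normalized terms it had 38.6 and 50.8 CPM in floral buds and 33.5 and 15.3 CPM in seedlings, so that both floral bud libraries were above both seedling libraries but floral buds replicate 1 and seedlings replicate 1 lay close together. The means were 44.7 ± 8.63 CPM in floral buds and 24.4 ± 12.9 CPM in seedlings (SD, n = 2 each). The log2 fold change of 0.87 ± 0.40 (SE; 95% interval 0.08 to 1.67) did not pass the test (edgeR FDR = 0.106). Without seedlings replicate 1 the log2 fold change was 1.53 and AP2 was called (edgeR FDR = 0.0312).

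Relatives of AP2 with a miR172 site went in different directions. TOE3, which had 10 and 16 counts in floral buds, against 3 and 2 in seedlings, was called higher in floral buds, with a count ratio of 3.98 (1.5 to 13.3, edgeR FDR = 0.0347). TOE1, a repressor of flowering, had 0 and 0 counts in floral buds, against 21 and 35 in seedlings, so that it was at least 12.1-fold higher in seedlings (edgeR FDR = 3.44e-14). Of the 5 relatives listed, 3 were tested, and 1 was called in each direction. The shares over all tested genes were 10.3% called higher in floral buds and 9.52% higher in seedlings. Being at 0 in both floral bud libraries, TOE1 passed the count filter through seedlings alone. TOE2 was the one not called, with 3 and 14 counts in floral buds, against 6 and 10 in seedlings. SMZ and SNZ were at 3 counts or fewer in each library. Of the MIR172 genes, MIR172B was analysed here, with 1 and 1 counts in floral buds, against 0 and 0 in seedlings, too few to test. The primary transcript count says nothing of the mature microRNA, which is not polyadenylated.

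The levels of the members in floral buds were ordered in CPM and per kb of transcript. A direct RNA read stands for 1 molecule, so CPM need no division by length, and the value per kb of the longest annotated transcript is given beside it. SEP2 stood first at 204 CPM and 136 ± 0.47 CPM per kb (SD, n = 2), above every other member in both libraries by either measure. By mean CPM, STK (52.5), AP2 (44.7), AGL6 (35.3), SHP1 (32.4) and SEP1 (30.4) followed, and each overlapped its neighbour among these 5 between the replicates. Per kb the same 5 genes came as STK (31.5 ± 2.22), AGL6 (26.8 ± 4.50), AP2 (24.5 ± 4.73), SEP1 (19.8 ± 8.46) and SHP1 (15.1 ± 0.03), again without separation of neighbours, so 4 of the 9 places changed. With the shortest annotated transcript, an alternative added after the data were seen, SHP1 moved up to place 3. No order among these 5 genes is therefore given. SEP4 came next at 16.7 CPM (11.5 ± 1.66 CPM per kb) and CAL at 8.76 CPM (7.08 ± 2.89 CPM per kb), each below its upper neighbour in both libraries, and AGL13 was listed at 0. In seedlings AP2 had 33.5 and 15.3 CPM and SEP4 15.9 and 13.6 CPM, overlapping each other, and SHP1 had 1.77 and 0 CPM.

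**Figure D4:**
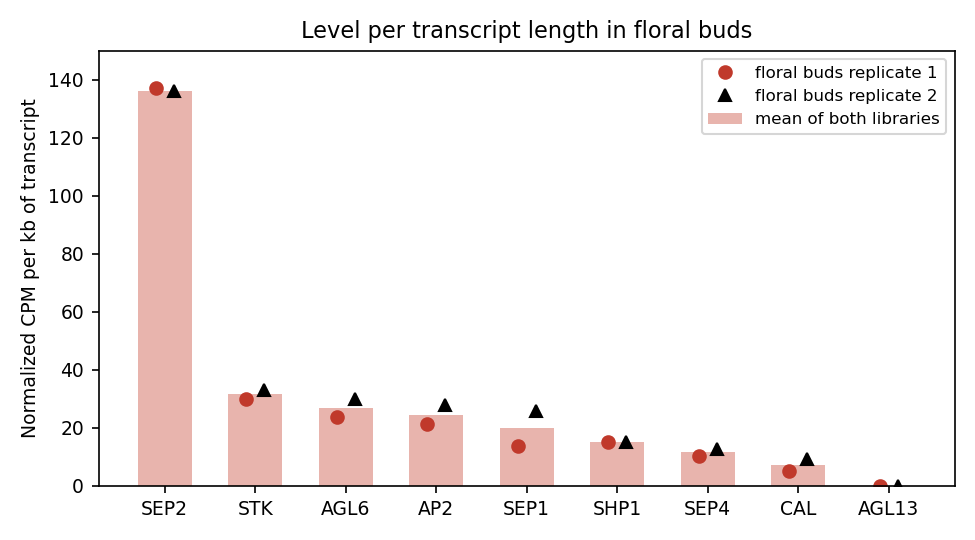
Level of the 9 listed identity genes in floral buds, in normalized CPM per kb of the longest annotated transcript. Bars are the means of the 2 libraries and symbols the single libraries. SEP2, at 137 and 136, stands above the rest. The 5 genes from STK to SHP1 overlap their neighbours, and their places change in CPM without division by length.

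Other genes of the MADS-box family were called in both directions. Of 25 other MIKC-type MADS-box genes, 17 were tested, 4 were called higher in floral buds, 1 was called higher in seedlings and 12 were not called. The shares over all tested genes were 10.3% called higher in floral buds and 9.52% higher in seedlings. Some of the called genes, FUL among them, were at 0 in both seedling libraries and so passed the count filter through floral buds alone. The median log2 fold change was 0.13 over the 16 with a value, genes at 0 in a stage taken at their bound. FUL, a fruit and meristem identity gene near AP1 and CAL, had 53 and 58 counts in floral buds, against 0 and 0 in seedlings (at least 14.3-fold higher in floral buds, edgeR FDR = 5.02e-19). FLM, a temperature-dependent regulator of flowering, had 60 and 50 counts in floral buds, against 21 and 6 in seedlings (log2 fold change 1.63 ± 0.37, edgeR FDR = 9.39e-05). SVP, a repressor of flowering, had 4 and 6 counts in floral buds, against 34 and 45 in seedlings, with a log2 fold change of -3.33 ± 0.47 (edgeR FDR = 4.24e-11).

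**Figure D5:**
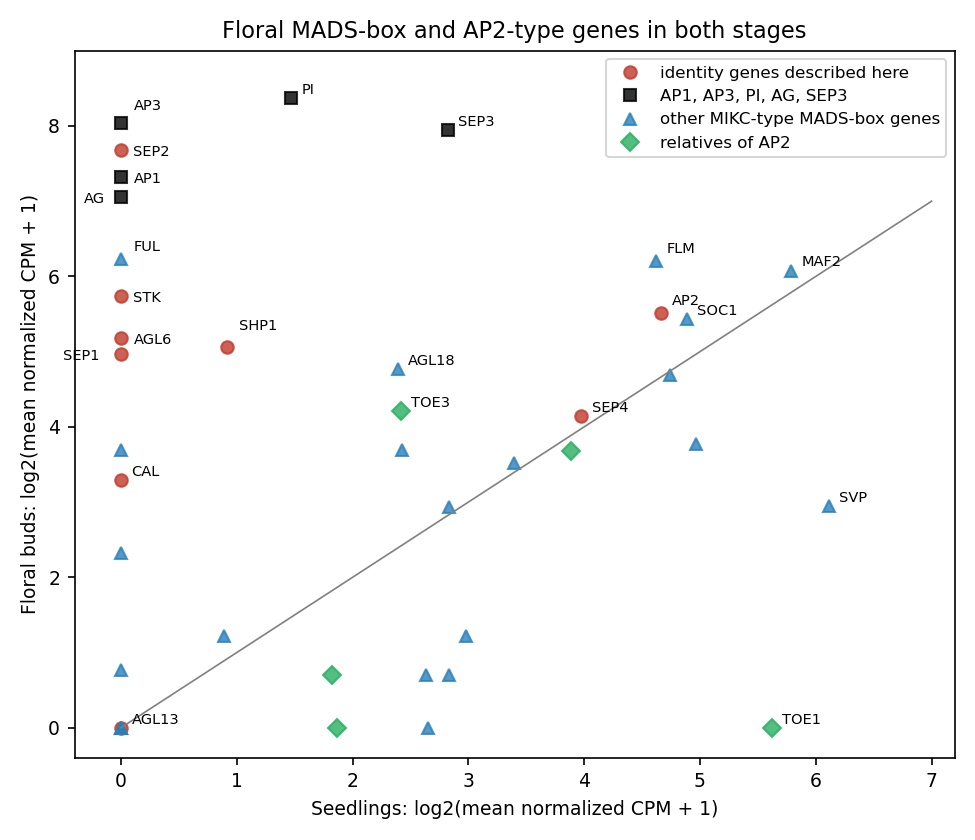
Mean normalized CPM, as log2(CPM + 1), in floral buds (vertical axis) against seedlings (horizontal axis) for the identity genes described here (red circles), the 5 markers (black squares), other MIKC-type MADS-box genes (blue triangles) and relatives of AP2 (green diamonds). The line marks equal levels. SEP1, SEP2, CAL, STK and AGL6 lie at 0 on the seedling axis, SEP4 lies near the line, and SVP and TOE1 lie below it.

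Among tested regulators of carpel and ovule development, the organs in which SHP1 and STK act, more were called higher in floral buds than in seedlings. Of 17 such genes 14 were tested, 8 were called higher in floral buds, 1 was called higher in seedlings and 5 were not called, and the median log2 fold change at the bounds was 1.47. Over all tested genes, 10.3% were called higher in floral buds and 9.52% higher in seedlings. Some of the called genes, CRC among them, were at 0 in both seedling libraries and so passed the count filter through floral buds alone. CRC, which is needed for carpel growth and nectaries, had 34 and 38 counts in floral buds, against 0 and 0 in seedlings (at least 9.25-fold higher in floral buds, edgeR FDR = 6.91e-13). ALC, which acts in the fruit's dehiscence zone, had 37 and 39 counts in floral buds, against 2 and 3 in seedlings (ratio 11.6, 4.77 to 36.9, edgeR FDR = 1.58e-08). HEC1, a factor of the transmitting tract, had 5 and 2 counts in floral buds, against 9 and 13 in seedlings (log2 fold change -2.00 ± 0.70, edgeR FDR = 0.0212).

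Promoter sequence was searched for letters known from floral regulation. In the 250 bases before to 50 bases after the annotated start, on both strands, the CArG box, the motif bound by MADS-box proteins, was found in 0 of the 10 members and in 3.05% of 27443 promoters. The letters CCANTG, known from LEAFY binding, were found in 4 of the 10 (once each in SEP2, SEP4 and AGL6, and 2 times in CAL) and in 25.7% of all promoters. In the 1000 bases before the start the CArG box was in 1 of the 10, SHP2, with its first base at -267 from the start, against 7.21% of promoters, and CCANTG was in 6 of the 10, against 65.5%. No member held both motifs in either window, so they did not overlap. A match describes letters only, and no match says only that these letters are not in the window.

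The genes most like SEP1 and AP2 in pattern were found by the distance in log2(CPM + 1) over the 4 libraries. Nearest to SEP1 was AT3G18360, at a distance of 0.18, with 18 and 25 counts in floral buds, against 0 and 0 in seedlings, and AT59 (AT1G14420) and AT3G21970 came next. Nearest to AP2 was AT1G02660, at a distance of 0.21, with 34 and 35 counts in floral buds, against 19 and 8 in seedlings, followed by FKBP53 (AT4G25340) and AT4G23860. Each likeness rests on 4 libraries.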

How the data were processed

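Poly(A) RNA of 2 floral bud and 2 seedling samples was sequenced by ONT DRS on a MinION. The authors called bases with Guppy, aligned reads to the TAIR10 genome with minimap2 (version 2.17 in the submitters' processing notes) and quantified genes with TrackCluster. The deposited unit is the estimated count of each gene, not scaled to library size. Among values greater than 0, 83.8% carried a fraction, and the cause was not tested. In their code a read belongs to a gene that it overlaps by 5% or more on either strand, so counts of overlapping or near-identical genes are uncertain.

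Each estimated count was rounded, and genes whose 4 libraries summed to 5 counts or more were fitted in edgeR 4.0.16 (R 4.3.3) with upper-quartile factors, the nearest scaling in edgeR to the quantile normalization of the study, and the quasi-likelihood test on stage. No gene received a variance of its own in this fit, so p-values rest on dispersion shared across genes. The common dispersion corresponded to a biological coefficient of variation of 14.6%. A gene was called at a Benjamini-Hochberg FDR under 0.05 and a fold change over 2. SE is the log2 fold change over the square root of F. Genes at 0 in both libraries of a stage have a bound against 3 counts in each of those libraries, and genes at 3 counts or fewer in both have a ratio of summed counts with an exact conditional binomial 95% interval. With 2 libraries a stage, an exact permutation test cannot go below p = 0.333 (two-sided), so none was run for single genes. Intervals and floors cover counting error only.

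The members and lists were chosen with earlier results of these data known. Of a list other than the members, the text gives counts and values for at most the 2 genes with the smallest FDR in each direction, and further overlapping loci and the genes nearest to SEP1 and AP2. AP1, TOE2, SMZ and SNZ, SOC1 and the neighbours are named for their sequence or position. LFY and CLV3 are named as meristem genes beside STM and WUS. Coordinates count from 1. Sequences, transcript lengths and identities come from the RefSeq annotation of TAIR10.1, the build named in the authors' code. The alternatives were TMM or library totals alone, DESeq2 1.42.0, limma-voom (limma 3.58.1) with quantile normalization, other count filters, unrounded counts, a replicate block, each library left out, and for levels and pair shares another length unit. The shortest transcript was added after the data had been seen.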

Additional observations from a re-analysis of the deposited data

How the results depend on the processing

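Over all genes, 3687 were called, and 1941 with DESeq2, 2462 with limma-voom and 1037 where at least 10 counts were required in each library. With one library left out the number was 2906 to 3307, with the replicate block 3095, and with no filter on low counts 3198. Of the members, 6 were called, and 5 with DESeq2. CAL was the gene lost, with DESeq2 (FDR = 0.152) and without either seedling library. Without seedlings replicate 1, AP2 was called in place of CAL, at a log2 fold change of 1.53. At 10 counts in each library no member was left, so this setting gives no value for them. Of 88 refits of single members, 83 kept direction and side of the threshold. The FDR of the called members was much larger with limma-voom than with edgeR, from 0.006 (SEP2) to 0.0494 (CAL). The fold change of AP2 was 0.40 to 1.53 (log2) with one library left out, with an FDR of 0.0312 to 0.631, and the one of SEP4 was -0.00075 to 0.33, turning below 0 without floral buds replicate 2. The fitted log2 fold change of SHP1 was 4.06 to 7.51 with one library left out. The causes were not tested.

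Replicate numbers are shared between the stages, but same-numbered libraries did not deviate together (correlation of deviations -0.0491 over 18647 genes), and the plants differ. The block left 6 members called. By CPM, or with the shortest transcript, 4 of the 9 places in the order of levels changed. The share of SHP1 in the SHP1 and SHP2 pair was not computed. SEP4 and CAL rest on at most 13 counts in any library.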

Other observations

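Regulators of floral meristems and of flowering were called in part. Of 12 listed, 8 were tested, 2 were called higher in floral buds and 6 were not called. Over all tested genes, 10.3% were called higher in floral buds. STM, which keeps meristem cells undifferentiated, had 41 and 53 counts in floral buds, against 2 and 1 in seedlings, a count ratio of 24.0 (7.96 to 118, edgeR FDR = 1.38e-12). WUS, which maintains stem cells and helps to activate AG, had 25 and 18 counts in floral buds, against 0 and 0 in seedlings (at least 5.45-fold higher in floral buds, edgeR FDR = 4.08e-08). It passed the count filter through floral buds alone. LFY had 4 and 0 counts in floral buds, against 1 and 1 in seedlings, and was not called. CLV3 was listed at 0 in every library.

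The gene next to SEP2, AT3G02300, lies 55 bp from it on the opposite strand and was itself called higher in floral buds. It had 43 and 35 counts in floral buds, against 11 and 6 in seedlings (edgeR FDR = 0.00035). Unlike SEP2 it was detected in both seedling libraries.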
